A study of Homo sapiens with 30 samples.

Results

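Cells of the human melanoma line A375 were sorted for surface integrin β4 (ITGB4), and each sort was then taken through repeated constricted migration, so that the data show which differences between the sorts were still measured after both had migrated. The comparison takes 6 of the 30 RNA-seq libraries of the series, chosen by their titles. In 3 libraries the cells were sorted ITGB4 positive and then crossed the membrane in 5 rounds (migrated positive), and in the other 3 they were sorted ITGB4 negative and then crossed in 4 rounds (migrated negative). For the same sort without migration, 3 parental positive and 3 parental negative libraries were used (0 rounds). All groups came from the original, uncloned A375 population, and none carried an engineered allele. Per the labels, the gate was set on unstained cells, the pores were 5 µm wide, the underside of the filter was coated with fibronectin, and cells were expanded between rounds. The sort and the number of rounds cannot be told apart here, because the titles give every positive library 1 round more than every negative library. The series text speaks of 5 rounds and names no other number, and the titles were followed. Replicates are numbered in the labels, which do not say that they were grown apart. The p-values therefore refer to the variation among these libraries, which may be technical.

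Integrin β4 pairs with integrin α6 to form a laminin receptor. In epithelia this receptor anchors hemidesmosomes, in which its long cytoplasmic tail binds plectin and the keratin network. In tumour cells the same receptor is known to take part in adhesion, signalling and invasion. A375 is a BRAF-mutant line derived from a melanoma.

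Counts assigned to genes were 15992216 to 27005690 in the 6 libraries, and 15381 of 26364 listed genes had enough counts to be tested. Levels are given as CPM, which are read counts scaled to library size, with TMM factors, and log2 fold changes as positive over negative with the SE of the fit. Migrated negative replicate 2 stood apart from the rest. It had 2135 genes more than 2-fold above and 2235 more than 2-fold below the median of the other 5 libraries, against 95 to 637 above and 150 to 588 below in those 5. In it 30.1% of reads were assigned to no gene, against 22.8 to 24.3% in the others, and the nuclear RNA MALAT1 reached 3348 CPM, against 326 to 766 CPM. Its deviations ran with transcript length: over the tertile of genes with the shortest transcripts the median was 0.42 on the log2 scale, and over the tertile with the longest it was -0.27. Migrated negative replicate 1 ran the other way, with medians of -0.11 and 0.14. The Spearman correlation with length was 0.26 in replicate 1 and -0.32 in replicate 2. Values without negative replicate 2 thus still include a negative library with a length trend. Migrated positive replicate 3 held reads of pancreatic acinar genes, such as 1068 reads of the carboxypeptidase gene CPA1, of which the other 5 libraries had 0 to 2. Results that rest on migrated negative replicate 2 or migrated positive replicate 3 are given with that fact.

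**Figure D1:**
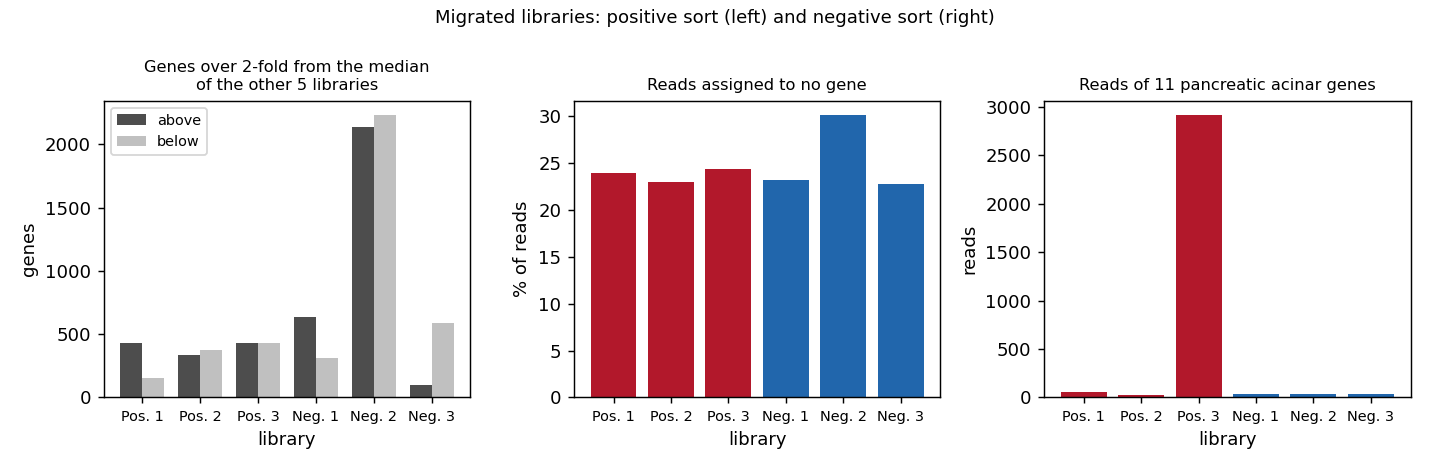
Library measures of the 3 migrated positive and 3 migrated negative libraries: the number of genes more than 2-fold from the median of the other 5 libraries, the percentage of reads assigned to no gene, and the reads of 11 pancreatic acinar genes. Negative replicate 2 departs most in the first 2 panels, with 2135 genes above and 30.1% of reads unassigned, and positive replicate 3 is alone in the last.

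ITGB4 transcript was higher in the migrated positive library of all 3 same-numbered pairs, but the 2 groups overlapped. The ratios within pairs were 1.14, 4.18 and 1.83. The labels state no pairing, and the share of all genes higher in all 3 pairs is not given. Migrated positive libraries held 366, 114 and 103 CPM, against 322, 27.2 and 56.4 CPM in migrated negative libraries. Replicate 1 was high in both sorts, and the spread within each sort was larger than the difference between the means, 194 ± 149 and 135 ± 162 CPM (SD, n = 3 each). The log2 fold change was 0.52 ± 0.84, with a 95% interval of -1.21 to 2.26 (edgeR adjusted p = 0.999, quasi-likelihood test with Benjamini-Hochberg adjustment). It was 2.21 without negative replicate 1, 0.05 without negative replicate 2, 0.15 without negative replicate 3 and -0.32 without positive replicate 1. With the replicate number as a block and these 2 groups alone in the fit, it was 1.07 ± 0.40 (edgeR adjusted p = 0.865).

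In the parental sort ITGB4 had stood at 168, 96.7 and 35.2 CPM in positive libraries, against 24.6, 33.7 and 25.1 CPM in negative libraries. All 3 positive libraries were above all 3 negative ones, as in 4.47% of all genes. That difference was 1.85 ± 0.87 on the log2 scale and did not pass over all genes either (edgeR adjusted p = 1). The 3 migrated negative libraries thus spanned levels from those of parental negative cells to above all parental positive libraries. The difference between the 2 sort differences was -1.32 ± 1.19 (edgeR adjusted p = 0.998), and its interval of -3.78 to 1.13 held both 0 and the whole parental difference. Whether the ITGB4 transcript difference was smaller after migration was not resolved. In bulk RNA, fewer ITGB4-positive cells and less ITGB4 RNA per cell cannot be told apart.

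No gene passed the test between the migrated sorts: edgeR called 0 of 15381 genes (0%), DESeq2 also called 0, and an unadjusted p under 0.05 was reached by 565 genes with edgeR (3.67%) and by 625 with DESeq2. All 3 migrated positive libraries lay above all 3 migrated negative ones in 318 genes (2.07%), and below them in 506 genes (3.29%). In the parental sort edgeR called 9 genes (0.0585%), with 6 above (0.039%) and 3 below (0.0195%) the negative sort. That count was 3 to 18 with single parental libraries left out and 77 with DESeq2. Fold changes of the 2 sorts, which share no library, had a Spearman correlation of -0.03 and a Pearson correlation of -0.28 across 15381 genes, which are not independent of each other. Migrated positive replicate 3 and parental negative replicate 3 both held acinar reads (2917 and 2804), and they lie on opposite sides of the 2 comparisons. CCND2, high in both libraries, had log2 fold changes of 6.03 after migration and -4.9 in the parental sort. The part of these libraries in the Pearson value was not tested. Among the 684 genes with an unadjusted parental p under 0.05 (4.45%), 58.5% kept the parental sign after migration, against 48.4% of all genes. Without negative replicate 2 this share was 49.3%, against 48.8% of all genes.

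The 9 genes called in the parental sort, which were chosen by that parental difference, were followed into the migrated sorts. These calls come from the fit of all 10 groups: with only the 2 parental groups fitted, edgeR called 1 gene, and 0 of these 9. In all 9, every migrated negative library lay outside the range of the parental negative libraries, on the side of the parental positive ones. Over all genes, all 3 migrated negative libraries lay above all 3 parental negative ones in 9.45% and below them in 8.95%, and the 9 genes were chosen with the same parental negative libraries. In 5 of the 9, all 3 migrated negative libraries reached or passed the nearest parental positive library. For 8 of the 9, the 95% interval of the migrated difference held 0 and left out the parental estimate, and SOX11 was the exception. The median difference in the parental direction was 0.14 on the log2 scale after migration and 2 in the parental sort. Since the parental difference chose these genes, its size is given as a description.

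FOXP1, a forkhead transcription factor, had 29.5, 26.2 and 24.4 CPM in migrated positive libraries, against 27.1, 33.1 and 16.5 CPM in migrated negative libraries. Parental positive libraries held 22.2, 19.1 and 16.3 CPM, against 5.73, 3.44 and 4.45 CPM in parental negative ones. The migrated sorts overlapped fully, with a log2 fold change of 0.06 ± 0.30 (interval -0.55 to 0.68), against 2.08 ± 0.32 in the parental sort. ZFPM2, a cofactor of GATA transcription factors, gave the same picture. Its migrated positive libraries held 39.6, 32.9 and 31.9 CPM, against 40.2, 20.8 and 33.9 CPM in migrated negative ones, and parental positive libraries held 29.2, 24.3 and 23.7 CPM, against 7.31, 7.83 and 9.06 CPM in parental negative ones. Its log2 fold change was 0.14 ± 0.22 after migration and 1.67 ± 0.23 in the parental sort. The test of the difference between the sort differences gave -1.54 ± 0.31 for ZFPM2 (edgeR adjusted p = 0.616). Without negative replicate 2 it was -1.76 and passed (edgeR adjusted p = 0.0315). ZFPM2 was chosen by its parental difference, which is part of this contrast, so the pass is not independent of that choice.

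EYA1, a phosphatase that also coactivates transcription during development, was one of 3 genes lower in the parental positive sort. It held 5.45, 7.27 and 4.25 CPM in migrated positive libraries, against 5.57, 8.87 and 6.67 CPM in migrated negative libraries. Parental positive libraries held 8.16, 7.10 and 12.6 CPM, against 53.8, 36.0 and 28.5 CPM in parental negative ones, so that parental negative cells alone stood high. TRO, which encodes the adhesion protein trophinin, followed this pattern at low levels, with 1.20 to 1.59 CPM in migrated positive, 1.09 to 1.53 in migrated negative, 1.37 to 1.48 in parental positive and 3.21 to 6.78 CPM in parental negative libraries. The log2 fold change after migration was -0.31 ± 0.30 for EYA1 and -0.02 ± 0.32 for TRO.

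The other 4 genes higher in the parental positive sort were also close in the migrated sorts. FBXL7, an F-box protein of a ubiquitin ligase, differed by 0.34 ± 0.27 after migration and 2.00 ± 0.28 in the parental sort. ANKRD30A, known as a breast differentiation antigen, differed by 0.02 ± 0.33 after migration and 1.98 ± 0.34 in the parental sort. SLCO1B3, an organic anion transporter of liver, differed by 0.34 ± 0.49 after migration and 3.29 ± 0.57 in the parental sort, where the negative libraries held 0.106 to 0.507 CPM. PGM5, a phosphoglucomutase-like protein of adhesion sites, differed by -0.03 ± 0.47 after migration and 2.71 ± 0.51 in the parental sort. PGM5 was high in replicate 1 of both migrated sorts, at 20.1 CPM in the positive and 23.4 CPM in the negative library, whereas the other replicates held 7.88 to 7.92 CPM in the positive and 6.42 to 6.78 CPM in the negative sort.

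**Figure D2:**
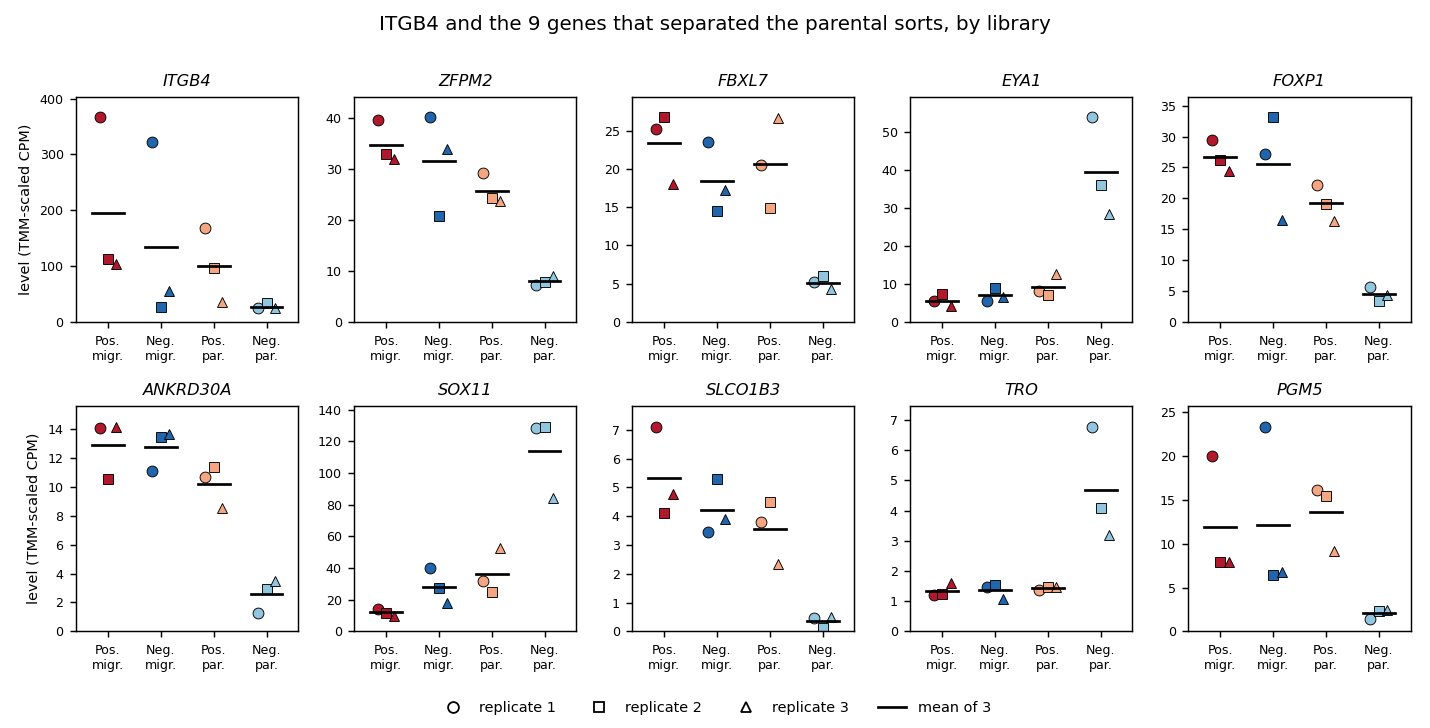
Levels in TMM-scaled CPM (linear axis from 0) of ITGB4 and the 9 genes called in the parental sort, in migrated positive, migrated negative, parental positive and parental negative libraries, with symbols for the 3 replicates and a line at the mean. In the 9 genes the migrated negative libraries lie away from the parental negative ones, and only for SOX11 do the migrated sorts not overlap.

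Against the parental cells of its own sort, the migrated negative group had 308 called genes (edgeR, 2%), 139 higher (0.904%) and 169 lower (1.1%), and the migrated positive group had 6 (0.039%), 1 higher (0.0065%) and 5 lower (0.0325%). These 2 comparisons share libraries with both sort comparisons, and so with the parental difference that chose the 9 genes. The negative comparison includes migrated negative replicate 2, which stood apart. It also includes parental negative replicate 1, where the mean log2 level of G2 and mitosis genes was 5.99, against 6.84 and 7.03 in the other parental negative libraries. Counts without either library are not given, and their part in the 308 calls was not tested. Each of the 9 was called in the migrated negative group, and SOX11 alone in the migrated positive group. For FOXP1 the log2 difference from parental cells was 0.48 ± 0.30 in the positive sort and 2.49 ± 0.32 in the negative sort, and for EYA1 it was -0.71 ± 0.30 and -2.49 ± 0.31. The difference between the sort differences passed for 0 genes over the whole table (edgeR, with 555 at an unadjusted p under 0.05, 3.61%), and for 6 with DESeq2. Those 6 included ZFPM2, FOXP1, ANKRD30A and SLCO1B3, which had been chosen by the parental difference that enters this contrast.

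**Figure D3:**
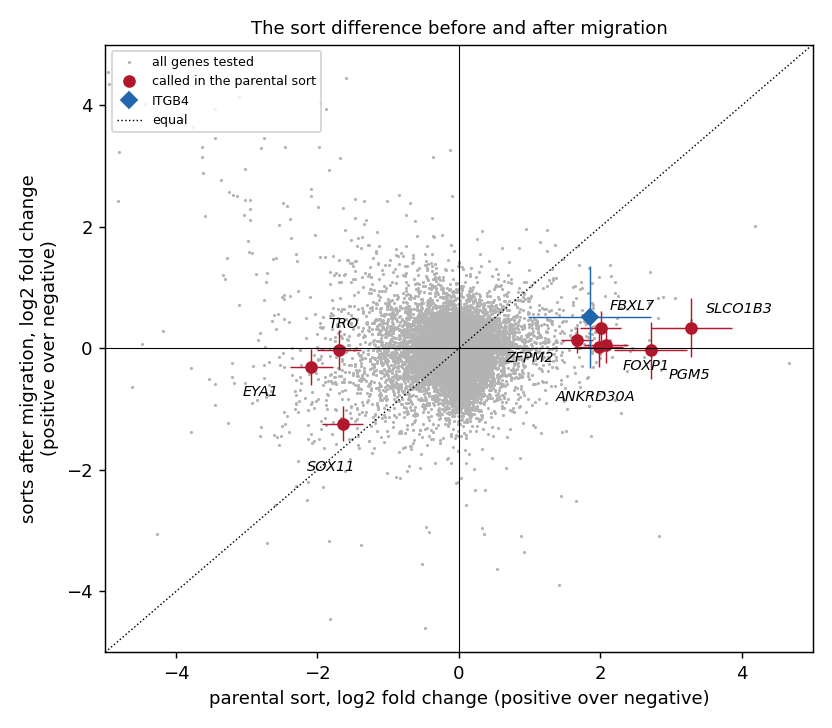
Log2 fold change, positive over negative, in the migrated sorts (vertical axis) against the parental sort (horizontal axis) for the genes tested, with SE bars on the 9 genes called in the parental sort and on ITGB4, and 39 genes beyond 5 on either axis not drawn. Of the 9 genes, 8 lie near 0 on the vertical axis and SOX11 lies near the dotted line of equal differences.

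SOX11, a transcription factor of neural development, lay lower in the positive sort both after and before migration. It held 14.2, 11.9 and 9.81 CPM in migrated positive libraries, against 39.8, 27.1 and 17.9 CPM in migrated negative libraries, and 31.7, 24.8 and 52.5 CPM in parental positive libraries, against 128, 129 and 83.9 CPM in parental negative ones. All 3 positive libraries were below all 3 negative ones in both sorts, as in 3.29% of all genes after migration and 4.96% in the parental sort. The migrated log2 fold change was -1.24 ± 0.29 (edgeR unadjusted p = 0.00026, adjusted p = 0.999), and the parental one was -1.64 ± 0.29 (edgeR adjusted p = 0.0189). Leaving out single migrated libraries gave -1.49 to -0.91. Both sorts were lower after migration: the log2 difference from parental cells was -1.60 ± 0.29 in the positive sort (edgeR adjusted p = 0.0388) and -2.01 ± 0.29 in the negative sort (edgeR adjusted p = 0.00113).

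The series holds 2 more sorts of A375 cells, made after 10 rounds, from cells that crossed and from cells that did not. SOX11 lay lower in the positive cells, without overlap, in all 4 sorts, with 21.7 to 30.1 CPM in positive and 75.1 to 88.2 CPM in negative cells that had crossed, and 66.6 to 82.6 CPM in positive and 84.4 to 108.7 CPM in negative cells that had not. All positive libraries lay below in 5.84% of genes in the first of these sorts and in 2.89% in the second. In these 2 sorts the log2 fold change was -1.59 ± 0.29 (edgeR adjusted p = 0.181) and -0.38 ± 0.28 (edgeR adjusted p = 1). SOX11 was named for its parental call and its lack of overlap after migration, so the migrated and parental sorts were not independent of that choice. LPL, taken up below, lay lower without overlap in 3 of 4 sorts, with 0.0088 ± 0.30 in cells that had not crossed. ITGB4 lay higher without overlap in 1 of 4, the parental sort.

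Named beside these were the 10 genes of smallest p in each direction whose groups did not overlap and whose mean reached 5 CPM in either group, none of them called. LPL, which encodes lipoprotein lipase, had the smallest p among them. It held 4.17, 3.07 and 2.72 CPM in migrated positive libraries, against 9.55, 7.87 and 8.20 CPM in migrated negative libraries. The log2 fold change was -1.36 ± 0.31 (edgeR unadjusted p = 0.000235, adjusted p = 0.999), and -1.40 without negative replicate 2. In the parental sort it was -1.01 ± 0.30 (edgeR adjusted p = 0.344), with 9.52, 7.31 and 20.8 CPM in positive libraries, against 24.5, 26.8 and 24.9 CPM in negative ones. LPL too was lower in both migrated sorts than in parental cells of the same sort, with log2 differences of -1.91 ± 0.32 in the positive sort (edgeR adjusted p = 0.0237) and -1.57 ± 0.31 in the negative sort (edgeR adjusted p = 0.00807).

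Of the 10 higher genes 5 were also higher in the parental positive sort, and of the 10 lower genes 4 were also lower there. Of all genes, 48.3% were higher in the parental positive sort. TRPC4, SH3GL2 and BTBD11, picked from the 10 higher genes, were higher there by more than 1 on the log2 scale, without being called in either sort. TRPC4, a cation channel, held 7.22, 4.04 and 4.82 CPM in migrated positive libraries, against 2.71, 1.45 and 1.99 CPM in migrated negative libraries. Its log2 fold change was 1.38 ± 0.40 after migration (edgeR adjusted p = 0.999) and 2.14 ± 0.46 in the parental sort (edgeR adjusted p = 0.0713). SH3GL2, an endophilin of endocytosis, held 12.5, 7.27 and 7.26 CPM in migrated positive libraries, against 5.69, 2.45 and 3.82 CPM in migrated negative ones, a log2 fold change of 1.17 ± 0.40, with 1.98 ± 0.43 in the parental sort. BTBD11, a BTB and ankyrin repeat protein, held 10.2, 9.54 and 6.75 CPM in migrated positive libraries, against 4.82, 2.37 and 5.28 CPM in migrated negative ones, a log2 fold change of 1.07 ± 0.40, with 1.88 ± 0.44 in the parental sort. The migrated groups did not overlap for these 3 genes, which the naming rule required, and without negative replicate 2 the values were 1.20, 0.93 and 0.81.

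Several of the remaining genes of smallest p leaned on single libraries. Negative replicate 2 was the highest of the 6 libraries for 8 of the 10 lower genes and the lowest for 9 of the 10 higher genes. The median log2 fold change of the 10 lower genes was -0.84 with that library and -0.56 without it, and that of the 10 higher genes was 0.73 and 0.53. Examples were the importin gene KPNA6, with 114, 111 and 112 CPM in migrated positive libraries, against 164, 281 and 117 CPM in migrated negative ones, and the transcription factor gene ZFHX3, with 72.0, 72.9 and 69.1 CPM in migrated positive libraries, against 101, 271 and 73.2 CPM in migrated negative ones. For ZFHX3 the log2 fold change was -1.05 with negative replicate 2 and -0.28 without it, and for KPNA6 it was -0.74 and -0.32. Others moved little: CYTH2, an exchange factor of ARF GTPases, was 0.35 and 0.33, TMEM98, a membrane protein, -0.76 and -0.61, and NOL9, of ribosomal RNA processing, -0.79 and -0.65. CCND2, which encodes cyclin D2, rested on positive replicate 3, the library with acinar reads: it held 0.154, 0.215 and 15.5 CPM in migrated positive libraries, against 0.0796, 0 and 0.112 CPM in migrated negative ones. The other lower genes were KLHL11, SLC30A7, NUP43 and GNL3L, with log2 fold changes of -0.94 to -0.64, and the other higher ones ARHGAP27, ARRDC2, KALRN, CLSTN3 and VAMP1, with 0.48 to 0.74.

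**Figure D4:**
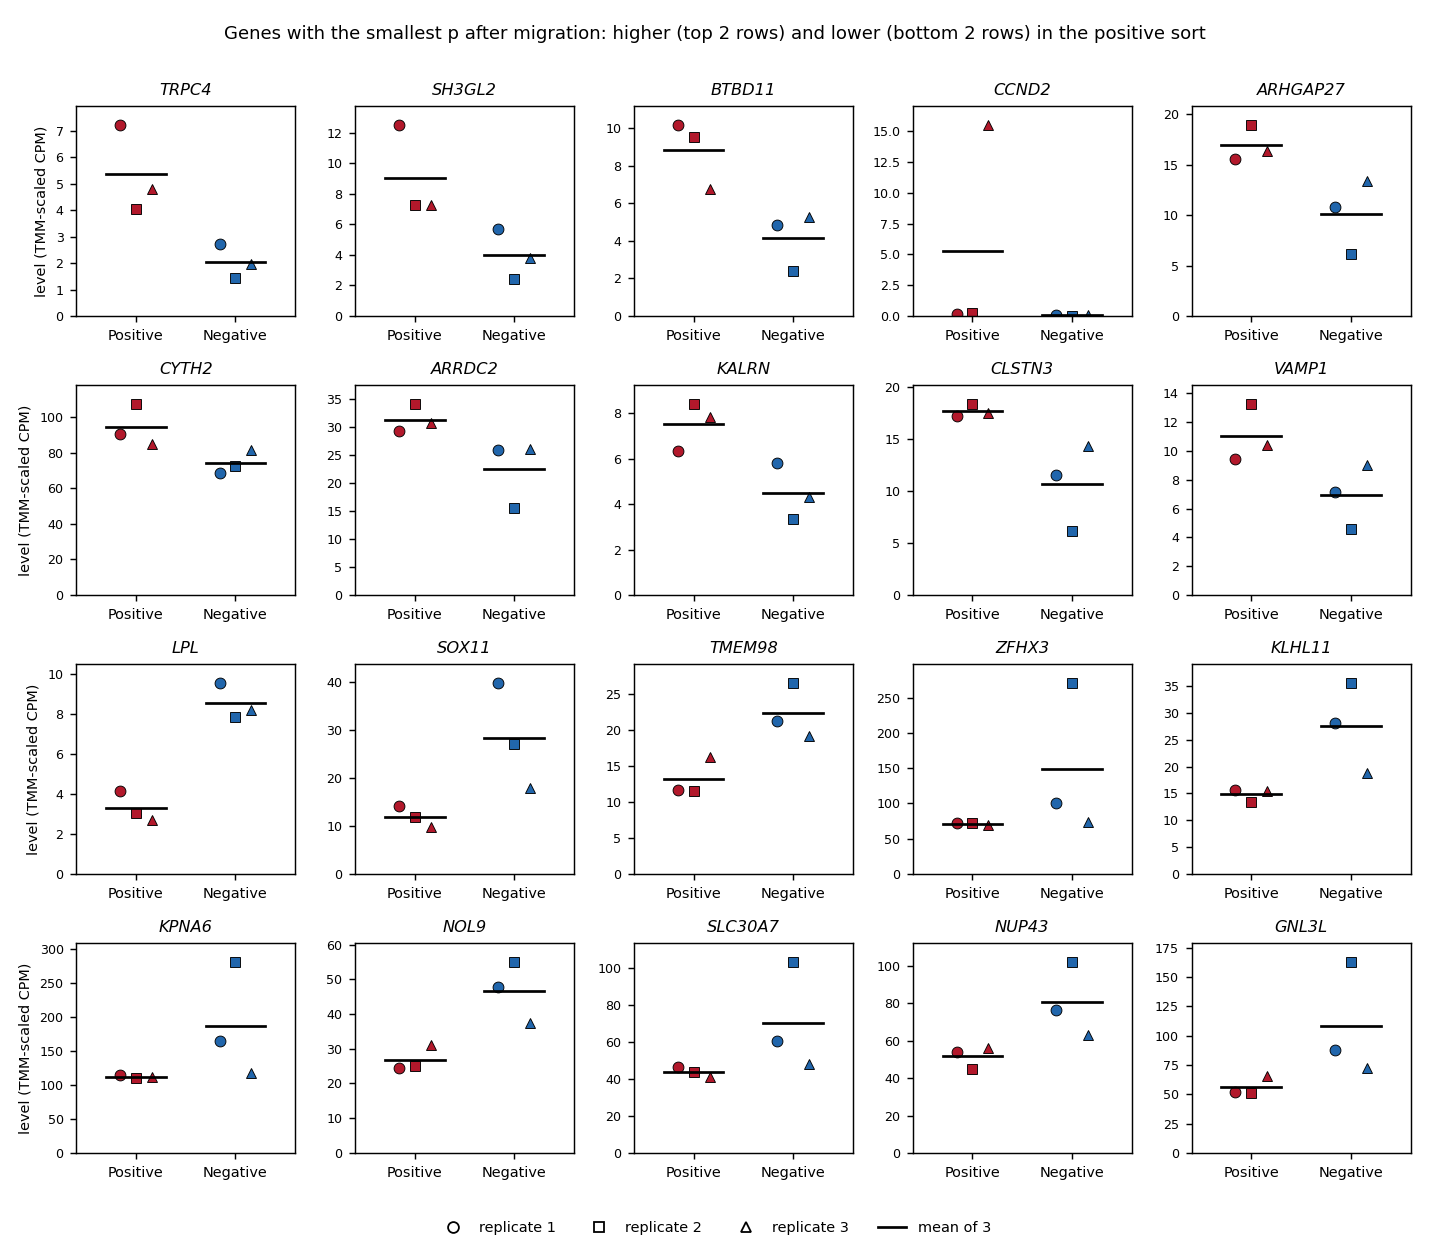
Levels in TMM-scaled CPM (linear axes from 0) of the 10 higher and the 10 lower genes with the smallest p in the migrated sorts, for 3 positive and 3 negative libraries, with a line at the mean. The naming rule required every gene drawn to separate without overlap. ZFHX3 and KPNA6 are drawn apart mainly by negative replicate 2 and CCND2 by positive replicate 3. Without negative replicate 2, the log2 fold changes of SOX11 and LPL were -1.26 and -1.40.

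Genes of the hemidesmosome and its laminin ligand leaned to the positive sort, with 0 called and a smaller lean without negative replicate 2. Of 10 tested, 9 were higher in the migrated positive sort, with a median log2 fold change of 0.39, against 46.4% of all genes and a median of -0.03. Without that library 9 of 10 were higher, with a median of 0.16. In the parental sort 8 of 10 were higher, with a median of 0.40. There parental negative replicate 1 was the lowest library, with a mean log2 level of 4.01, against 4.70 to 5.41 in the others. LAMB3, the β chain of the laminin that binds hemidesmosomes, held 33.4, 32.9 and 28.5 CPM in migrated positive libraries, against 25.2, 10.7 and 22.5 CPM in migrated negative ones, a log2 fold change of 0.69 ± 0.33, and 0.41 without negative replicate 2. LAMA3, its α chain, held 3.82, 2.69 and 3.00 CPM in migrated positive libraries, against 2.39, 0.764 and 1.76 CPM in migrated negative ones. COL17A1, a transmembrane collagen of hemidesmosomes, held 2.90, 1.83 and 1.25 CPM in migrated positive libraries, against 1.03, 0.917 and 0.861 CPM in migrated negative ones. These 3 of the 10 were picked because their groups did not overlap, as in 2.07% of all genes, whereas those of the partner subunit ITGA6 did, at 322, 525 and 311 CPM in migrated positive libraries, against 372, 369 and 310 CPM in migrated negative ones. Plectin transcript (PLEC) was low in negative replicate 2 alone, with 433 CPM, against 1515 to 1622 CPM in migrated positive libraries and 1570 to 1773 CPM in the other negative ones.

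All 11 laminin chains were higher in the migrated positive sort (median 0.34), and 7 of 11 without negative replicate 2 (median 0.06). Of 13 integrin α subunits 11 were higher (median 0.34), and 9 without it (median 0.15). Of 25 semaphorins, plexins and neuropilins, which are guidance ligands and receptors, 20 were higher (median 0.29), and 13 without it (median 0.01). Ribosomal proteins and the respiratory chain lay on the other side. In the migrated positive sort 0 of 24 ribosomal protein genes were higher (median -0.47), and 14 of 24 without negative replicate 2 (median 0.02). For the respiratory chain the medians were -0.48 and -0.04. In the fit of all 30 libraries, edgeR called none of the members of the 43 lists between the migrated sorts.

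Genes of G2 and mitosis leaned to opposite sides in the migrated and parental sorts, and the difference between the leans was not tested. Of 52 such genes, 9 were higher in the migrated positive sort (median -0.17), against 46.4% of all genes and a median of -0.03. In the parental positive sort 51 were higher (median 0.39), against 48.3% of all genes. Without negative replicate 2, 4 of 52 were higher (median -0.12). Of 45 S phase genes, 15 were higher after migration (median -0.07) and 44 in the parental sort (median 0.37). The S phase lean after migration was small. Mean log2 levels were 6.14, 6.27 and 6.50 in migrated positive libraries, against 6.11, 6.43 and 6.61 in migrated negative ones. The mean log2 level of the G2 and mitosis genes was 7.16, 6.99 and 7.13 in migrated positive libraries, against 7.23, 7.23 and 7.22 in migrated negative ones, and 6.97, 7.12 and 7.11 in parental positive libraries, against 5.99, 6.84 and 7.03 in parental negative ones. Parental negative replicate 1 stood lowest by far, and its part in the parental lean was not tested. The same library was lowest for S phase genes, at 4.91, against 6.11 to 6.41 in the other parental libraries. Among members, BIRC5 (survivin, of the chromosomal passenger complex), picked after its values were seen, held 120, 129 and 124 CPM in migrated positive libraries, against 142, 222 and 135 CPM in migrated negative ones. Negative replicate 2 was the highest of these, and a fold change without it is not given for BIRC5. No member was called in either direction.

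**Figure D5:**
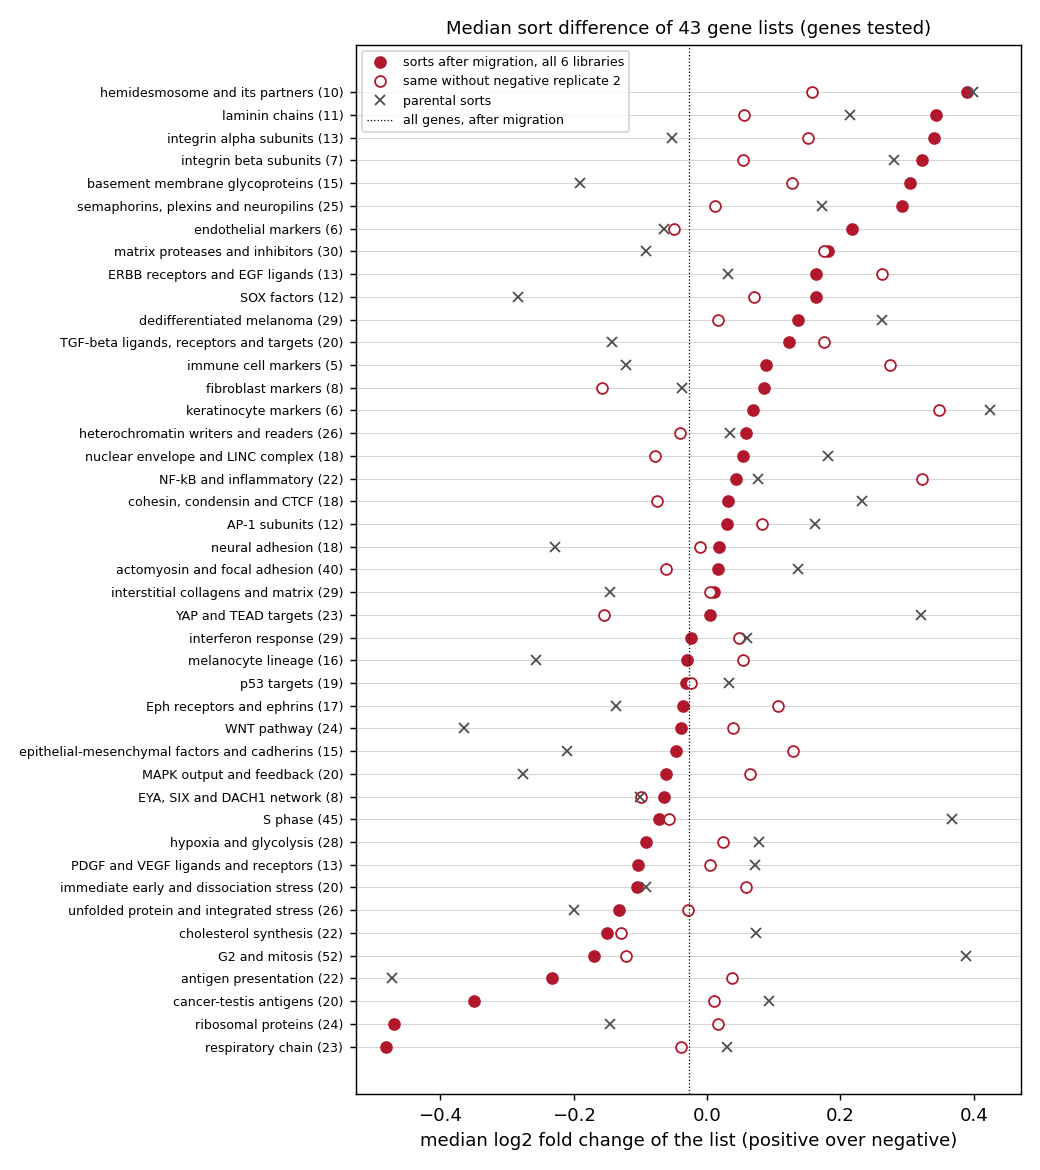
Median log2 fold change, positive over negative, of 43 gene lists (number of genes tested in brackets) in the migrated sorts with all 6 libraries, without negative replicate 2, and in the parental sorts, with the median of all genes as a dotted line. Ribosomal and respiratory lists move to near 0 without that library, and G2 and mitosis lies at -0.17 after migration and 0.39 in the parental sort.

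Differences between the migrated and the parental leans of the next 2 lists were not tested. Of 23 targets of the mechanosensitive YAP and TEAD factors, 12 were higher in the migrated positive sort (median 0.00405), 5 without negative replicate 2 (median -0.15), and 18 in the parental positive sort (median 0.32). Of 29 genes of dedifferentiated melanoma, 17 were higher after migration (median 0.14), 15 without negative replicate 2 (median 0.02), and 22 in the parental sort (median 0.26). Parental negative replicate 1 was the lowest parental library for both lists. Its mean log2 level was 4.97, against 5.32 to 5.74 in the others, for YAP and TEAD targets. For dedifferentiated melanoma it was 5.23, against 5.75 to 6.18. Its part in these parental leans was not tested. AREG, the EGF receptor ligand amphiregulin, held 6.76, 1.62 and 3.17 CPM in migrated positive libraries, against 1.55, 1.53 and 1.57 CPM in migrated negative ones, a log2 fold change of 1.31 ± 0.54, and 1.31 in the parental sort. CDH11, a mesenchymal cadherin, held 2.12, 1.35 and 1.64 CPM in migrated positive libraries, against 0.995, 0.688 and 0.562 CPM in migrated negative ones, a log2 fold change of 1.18 ± 0.46, with 0.24 in the parental sort. Neither passed the test (edgeR adjusted p = 0.999 for each). Both were picked after their values were seen. Their migrated positive libraries lay above all migrated negative ones, as in 2.07% of all genes. Of 15 epithelial-mesenchymal factors and cadherins tested, 7 were higher and 8 lower in the migrated positive sort (median -0.05). Without negative replicate 2, 10 of the 15 were higher (median 0.13).

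Same-numbered libraries of the migrated sorts resembled each other, and a paired fit of replicates 1 and 3 alone was chosen after the data had been seen. It called 42 of 14565 genes tested, 19 higher and 23 lower. That fit has 4 libraries and 1 residual degree of freedom, and its p-values do not allow for the choice of libraries. In the left-out pair, 27 of the 42 went the same way. The share of all genes that did so is not given, and that pair includes negative replicate 2, which stood apart. SOX11 (-1.19, edgeR adjusted p = 0.000321), LPL (-1.36, edgeR adjusted p = 0.00391), TRPC4 (1.36, edgeR adjusted p = 0.0142) and SH3GL2 (1.05, edgeR adjusted p = 0.0142) were among the 42. These 4 genes had already been named for a small p without overlap in the same libraries, so these p-values add no independent evidence. TFAP2B, a transcription factor of the neural crest, was lower (-3.26, edgeR adjusted p = 4.07e-07), with 1.43, 4.53 and 0.964 CPM in migrated positive libraries, against 17.4, 40.1 and 6.29 CPM in migrated negative ones. SOX9, another neural crest factor, was higher (1.12, edgeR adjusted p = 0.0182), with 8.96, 4.90 and 9.01 CPM in migrated positive libraries, against 3.19, 2.52 and 5.39 CPM in migrated negative ones. AMY2B, CEL and NNAT were also called and stood on positive replicate 3 alone, at 32.5, 37.0 and 43.9 CPM. With all 3 pairs in the fit, edgeR called 0 genes.

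Marker sums of each cell type overlapped between the migrated sorts. Summed over 7 genes, melanocyte lineage markers ran from 498 to 944 CPM in migrated positive libraries, against 287 to 675 CPM in migrated negative libraries, with TYR at 0 in all 6. In migrated positive libraries the summed keratinocyte markers held 150 to 171 CPM, fibroblast markers 13.9 to 29.1, endothelial markers 6.94 to 15.3 and immune markers 0.325 to 0.556 CPM. In migrated negative libraries the same sums were 93.6 to 180, 11.9 to 27.3, 4.25 to 11.5 and 0.368 to 0.75 CPM. IVL, CD3E and MS4A1 were at 0 in all 6.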

How the data were processed

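The deposited values are raw counts of reads per gene symbol from polyA RNA, 1 file per library. The submitters' processing notes name STAR, HTSeq, DESeq and hg19, and their versions, the annotation and the strand setting are not given in the sources used here, so antisense and near-identical genes (the HLA and amylase genes among them) are uncertain. Rows that name no gene (22.8 to 30.1% of reads in the 6 libraries) were left out.

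Low genes were removed with filterByExpr of edgeR, at a count of 10 and a total of 15. TMM-scaled counts of all 30 libraries in 10 groups were fitted with edgeR 4.0.16 (quasi-likelihood, R 4.3.3), with Benjamini-Hochberg adjustment over 15381 genes at 0.05. An SE is the log2 fold change divided by the square root of F, and log levels used a prior count of 2. Alternatives were DESeq2 1.42.0, RLE factors, no filter, a replicate block, only the compared groups and each library left out. The script was tested on simulated data.

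Same-numbered libraries of the migrated sorts correlated at 0.435, 0.199 and 0.28 after group means were removed, which was taken as a pairing from the data, since the labels state none. In the parental sorts these values were -0.131, 0.271 and -0.448. Differently numbered libraries ran from -0.252 to -0.0026 in the migrated sorts and from -0.565 to 0.539 in the parental sorts. Values as high as those of the migrated pairs thus also arose between parental libraries of different number, so the pairing remains uncertain. Named genes were ITGB4, the genes called in the parental sort, and the 10 of smallest p each way without overlap whose higher group mean was 5 CPM or more. Genes named from lists or the paired fit outside this rule were chosen after their values were seen. The comparison, the members and the 43 lists were chosen with earlier results of these data known. An exact permutation test of 3 against 3 libraries cannot go below 0.1. Transcript lengths came from a GRCh38 annotation matched by symbol for 94.12% of tested genes, and no coordinates are given because the build differs.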

Additional observations from a re-analysis of the deposited data

How the results depend on the processing

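Between the migrated sorts 0 genes were called with RLE factors, no filter, DESeq2, the compared groups alone, a replicate block over all 30 libraries, a replicate block in the 2 groups alone, and without the 6 libraries of the series that stood apart. A replicate block on replicates 1 and 3 alone called 42. Leaving out single libraries gave 0 to 2 calls, the 2 (HOOK3 and ZNF264, both lower) without negative replicate 3. The parental count of 9 was 27 with the replicate block over all libraries, 1 with the compared groups alone (none of the 9), 77 with DESeq2, 25 without the 6 libraries, and 3 to 18 with single libraries left out, 18 without parental positive replicate 3 and 3 or 4 without each other parental library except negative replicate 3. The difference between the sort differences gave 6 calls with DESeq2, 2 without the 6 libraries (ZFPM2 and VCX2) and 0 to 1 with single libraries left out. ITGB4 ran from -0.32 to 2.21 with single libraries left out and was 0.58 with the replicate block over all libraries. Of 28 other named genes 23 kept their sign in each alternative run for them. CCND2 was not given by the 3 fits restricted to the compared groups. The 5 others were near 0: TRO was 0.0458 with no filter, 0.0090 with the block over all libraries, 0.0283 with the compared groups alone, 0.0017 with DESeq2, 0.0297 with the block in the 2 groups, 0.12 with replicates 1 and 3 and 0.0717 without the 6 libraries. PGM5 was 0.019 with no filter, 0.0092 with the compared groups alone and 0.14 with the block in the 2 groups. ZFPM2 was -0.0372 with replicates 1 and 3 and -0.0801 without the 6 libraries. With single libraries left out, ANKRD30A ran from -0.067 to 0.15, FOXP1 from -0.17 to 0.30, PGM5 from -0.63 to 0.86, TRO from -0.16 to 0.0735 and ZFPM2 from -0.0808 to 0.35. The causes were not tested.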

Other observations

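Genes of class II antigen presentation, which display peptides to CD4+ T cells and can be expressed by melanoma cells, stood lower in the migrated positive sort, with 0 of 15 called in the fit of all libraries (edgeR; 0% of all genes). The list was put together after its values had been seen. In 12 of the 15 the positive library was below the negative one in all 3 same-numbered pairs, as it was in 15.7% of all genes. The median log2 fold change was -0.83. The paired fit of replicates 1 and 3, also chosen after seeing the data, called 6 of the genes, all lower (HLA-DRB1, HLA-DQA2, HLA-DRA, HLA-DOA, HLA-DRB5 and CD74), of which 4 were lower in the left-out pair too. HLA-DRA held 55.5, 171 and 84.0 CPM in migrated positive libraries, against 139, 352 and 114 CPM in migrated negative libraries, a log2 fold change of -0.96, with -0.78 in the parental sort. HLA-DRB1 held 24.6, 56.9 and 34.6 CPM in migrated positive libraries, against 62.1, 131 and 48.9 CPM in migrated negative ones. CD74, the invariant chain, was lower in 2 of 3 pairs, with 387, 1038 and 647 CPM in migrated positive libraries, against 891, 806 and 775 CPM in migrated negative libraries. These genes have near-identical copies, so single values are uncertain. Negative replicate 2 was the highest of the 6 libraries for HLA-DRA and HLA-DRB1, but not for CD74. A median without that library is not given for the 15 genes. Of a separate list of 22 antigen presentation genes, 7 were higher in the migrated positive sort (median -0.23), and 13 without negative replicate 2 (median 0.04).

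Reads of 11 pancreatic acinar genes numbered 2377 to 3021 in 4 of the 30 libraries, which belong to 4 groups, and 12 to 80 in the others. Beside migrated positive replicate 3, parental negative replicate 3 was among the 4, with 1001 reads of CPA1 and 632 of CEL, against 1068 and 653 in the migrated positive library. CCND2 followed them, with 273 reads in migrated positive replicate 3 and 262 in parental negative replicate 3.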
